A study of Mus musculus with 24 samples.

Results

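The genes described here encode factors that brown fat is known to secrete: Bmp8b, S100b, Nrg4, Vegfa, Vegfb, Ptgds, Metrnl and Il6. They were taken by gene symbol from the 5 deposited comparison tables of a study of interscapular brown fat. Of the 8 genes named, 7 had a row in at least 1 table and 6 had a row in all 5, out of 13162 genes in any table and 11917 in all 5. Il6 had no row and was not analysed here. The tables list a gene only where its mean reached 0.5 RPKM (reads per kilobase of gene, scaled to library size) in the higher of the 2 groups compared.

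RNA was sequenced from whole interscapular brown fat of male mice on a C57BL/6 background, aged 10 to 12 weeks and collected at ZT10, that is, 10 h after lights on. Every mouse carried floxed HDAC3. Control mice carried the floxed gene alone, and KO mice also carried Ucp1-cre, a recombinase driven by the promoter of the brown fat uncoupling protein Ucp1, so that cells of the tissue that never used that promoter kept the gene. Each genotype was studied without cold at 22 °C, and after 24 h at 15 °C followed by a return to 22 °C for either 24 h or 7 d, with 4 libraries in each of the 6 groups. The design asked whether effects of a cold exposure last after it ends, and whether they do so without HDAC3, a histone deacetylase that acts with nuclear receptors and their corepressors. Hdac3 itself checked the labels: it lay between 23.4 and 28.7 RPKM in the Control libraries and between 5.82 and 9.0 RPKM in the KO libraries, so the tissue kept part of its Hdac3 RNA. Libraries held 4637903 to 12538811 counted reads.

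Brown fat burns fuel to make heat, and it also releases proteins that act on nerves, vessels, immune cells and other organs. BMP8B is a ligand of the TGF-beta superfamily that raises the thermogenic response of brown fat. S100B is a calcium-binding protein that mouse brown adipocytes release to promote sympathetic innervation, with the help of a product of the Clstn3 locus. NRG4 is an EGF-like ligand of the receptor ErbB4. VEGF-A and VEGF-B are vascular growth factors. PTGDS makes prostaglandin D2 and also carries lipophilic molecules as a secreted lipocalin. METRNL is a secreted protein, related to meteorin, that acts on immune cells and binds the receptor KIT in mouse heart. IL-6 is a cytokine that signals through IL6RA and gp130.

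The deposited tables give group means and no library values. Because each mean is printed to 15 digits and is a sum of whole read counts over whole library totals, the read count in each library could be rebuilt for most genes. The rebuilt libraries of a group are called a to d, from the largest total to the smallest, and cannot be tied to replicate numbers. Rebuilt counts were obtained for Bmp8b, S100b, Vegfb, Ptgds and Metrnl in every group with a deposited mean, and for Nrg4 in 5 groups. Vegfa had too many reads, and Nrg4 in KO mice at 22 °C had 2 solutions, so for these only the authors' means are given. Unless stated otherwise, a fold change and its adjusted p come from the authors' deposited tables, and a gene is said to rise or fall where that adjusted p is under 0.05. The error given after a log2 value was rebuilt from the deposited p and is an SE.

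**Figure D1:**
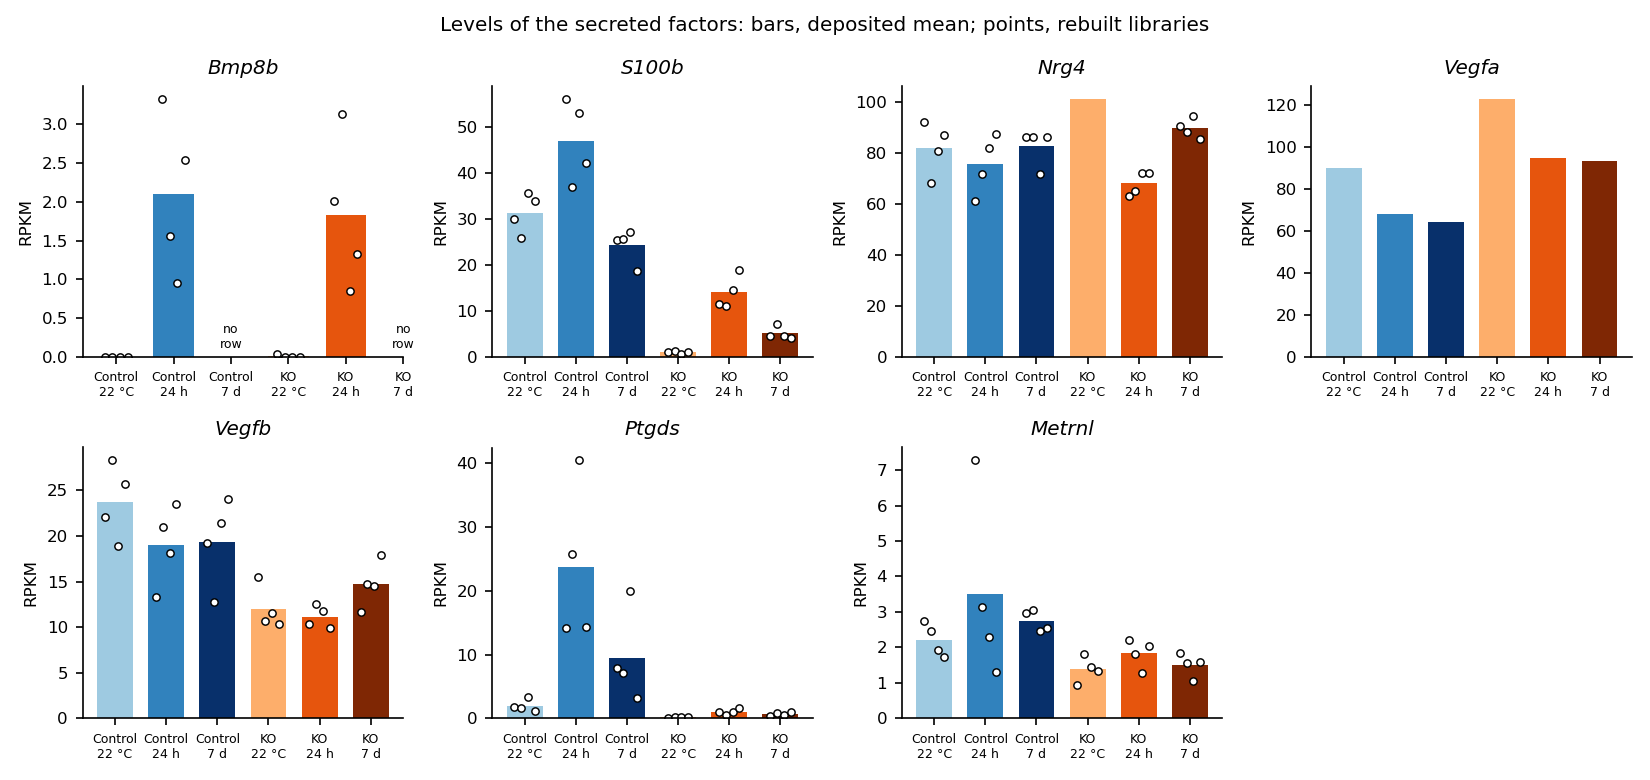
RPKM (vertical axis, from 0) of the 7 measured factors in the 6 groups; bars are the authors' deposited means and points are rebuilt libraries, 4 a group. Bmp8b was near 0 in both genotypes at 22 °C and above 0.8 RPKM in all libraries 24 h after cold, while S100b and Ptgds were lower in KO than in Control at each time. Vegfa, and Nrg4 in KO mice at 22 °C, are shown as means alone.

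In Control mice after cold 3 of 7 factors passed the test, all higher (Bmp8b, S100b and Ptgds), where 21.8% of all genes passed, 13.1% higher and 8.67% lower. In KO mice after cold 5 of 7 passed, with the same 3 higher and with Nrg4 and Vegfa lower, where 41.9% of genes passed, 22.1% higher and 19.8% lower. Between genotypes at 22 °C 5 of 6 passed, with S100b, Vegfb and Ptgds lower in KO mice and Nrg4 and Vegfa higher, against 34.3% of genes, 16.3% higher and 18.0% lower. At 24 h 4 of 7 passed, with the same genes lower and Vegfa higher, against 18.5%, 10.5% higher and 7.96% lower. At 7 d 3 of 6 passed, with S100b and Ptgds lower and Vegfa higher, against 15.3%, 9.18% higher and 6.14% lower. The members were chosen with results known and are few, so these shares describe them and no more.

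Bmp8b was switched from next to nothing to a low level 24 h after cold, in both genotypes. Its promoter is printed because no other member moved from a count of 0. The window is chr4:123104911-123105210 on the plus strand of GRCm38.p6, taken from RefSeq, with capitals for the letters ACGTG or their reverse complement, the core of hypoxia response elements.
Bmp8b: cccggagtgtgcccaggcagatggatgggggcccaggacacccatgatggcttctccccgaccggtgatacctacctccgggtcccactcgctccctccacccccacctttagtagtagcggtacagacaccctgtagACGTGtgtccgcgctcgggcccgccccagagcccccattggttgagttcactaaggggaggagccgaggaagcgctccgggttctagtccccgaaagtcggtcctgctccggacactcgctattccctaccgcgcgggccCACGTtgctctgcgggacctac
It held 2 such matches, the first 112 bases before the start and the second after it. The same letters occurred on either strand in 19.6% of 32851 promoter windows of that length, so such a match is common.

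In Control mice at 22 °C the 4 libraries held 0 reads of Bmp8b among 29282009. At 24 h after cold, Control libraries a to d held 96, 41, 24 and 56 reads, which is 3.33, 1.56, 0.959 and 2.54 RPKM. In KO mice at 22 °C library a held 1 read and the other libraries held 0, and 24 h after cold libraries a to d held 71, 84, 19 and 25 reads, or 2.02, 3.13, 0.856 and 1.33 RPKM. The groups at 22 °C and after cold did not overlap in either genotype. Set against the upper limit that a count of 0 allows, 3 reads over the group or 0.0348 RPKM, Bmp8b was at least 60.9-fold higher after cold in Control mice (adjusted p = 7.0e-15). In KO mice the ratio of 199 reads to 1 read, scaled to library totals, was 210, with an exact 95% interval from 37.3 to 8337 that covers counting error only (adjusted p = 6.5e-15). The 2 genotypes overlapped 24 h after cold, at means of 2.10 and 1.83 RPKM, and their difference did not pass the test (adjusted p = 1). The difference between the rises in KO and Control mice did not pass either (-1.63 ± 1.32 on the log2 scale, adjusted p = 0.45), with an error that leaves room for a large one. With 0 reads in Control and 1 read in KO mice at 22 °C, its value depends on the prior count that the fit adds. It therefore cannot decide whether the rises differed. Bmp8b had no row in the KO against Control tables at 22 °C and 7 d after cold. The listing level of 0.5 RPKM stands at 7 d for 11 reads of Bmp8b per library in Control mice and 13.0 in KO mice. If that level alone decided listing, the Bmp8b means of both genotypes at 7 d were under 0.5 RPKM. The lowest library at 24 h was at 0.856 RPKM. The level of Bmp8b at 7 d was not analysed further. Bmp8b overlaps Ppie on the opposite strand in the GENCODE annotation, and the library kit does not mark strand. Ppie was at 8.15 RPKM in the Control group at 22 °C in which Bmp8b had 0 reads, and its log2 change after cold was 0.14 in Control and 0.37 in KO mice.

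S100b carried the largest fall with loss of HDAC3 among the factors at 22 °C, and part of that fall was gone after cold. At 24 h and 7 d after cold Ptgds had the larger fall, at 21.2-fold and 13.2-fold. S100b was 26.8-fold lower in KO than in Control mice at 22 °C, 3.05-fold lower 24 h after cold, and 4.54-fold lower 7 d after cold. Its promoter is printed beside that of Bmp8b because S100b and Ptgds were the factors lower in KO mice at every time. The window is chr10:76253586-76253885 on the plus strand of GRCm38.p6, from RefSeq.
S100b: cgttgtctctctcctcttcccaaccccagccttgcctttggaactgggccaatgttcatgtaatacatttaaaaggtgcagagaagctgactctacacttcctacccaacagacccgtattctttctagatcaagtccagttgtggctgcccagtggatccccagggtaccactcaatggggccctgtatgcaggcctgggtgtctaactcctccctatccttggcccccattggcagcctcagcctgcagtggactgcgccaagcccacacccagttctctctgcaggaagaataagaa
It held no match to ACGTG, to AAGGTCA (the half-site of estrogen-related receptors, present in 4.72% of windows) or to TGACGTCA (the cyclic AMP response element, in 1.79%), searched on both strands. No match says only that these letters are not in this window.

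At 22 °C the Control libraries a to d had 30.1, 25.9, 35.6 and 33.9 RPKM of S100b. The KO libraries had 1.10, 1.33, 0.526 and 0.994 RPKM, from 18, 21, 8 and 14 reads. The groups lay far apart and did not overlap (log2 change -4.74 ± 0.26, adjusted p = 2.6e-70). At 24 h after cold the Control libraries had 56.1, 36.9, 53.1 and 42.1 RPKM, all above those at 22 °C, and S100b rose 1.56-fold (log2 0.64 ± 0.20, adjusted p = 0.0097). The KO libraries then had 11.6, 11.1, 14.5 and 18.8 RPKM, a rise of 13.7-fold (log2 3.77 ± 0.26, adjusted p = 6.9e-45), but all 4 stayed below every Control library of the same time (adjusted p = 6.0e-13). The rise was larger in KO than in Control mice by 3.13 ± 0.33 on the log2 scale (adjusted p = 4.7e-19). In that difference 17.6% of 10923 genes passed the threshold, and among the members S100b and Nrg4 did. At 7 d the Control libraries had 25.4, 25.7, 27.2 and 18.7 RPKM and the KO libraries 4.52, 7.14, 4.55 and 4.15 RPKM (adjusted p = 7.8e-21). Each KO library at 7 d lay above each KO library at 22 °C and below each KO library 24 h after cold. The KO effect at 7 d was smaller than at 22 °C by 2.56 ± 0.34 on the log2 scale (adjusted p = 1.3e-11), in a comparison in which 14.8% of genes passed. Its change from 24 h to 7 d did not pass the test (-0.57 ± 0.30, adjusted p = 0.85), where 0.201% of genes passed.

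The tables hold no comparison of 7 d with 22 °C or with 24 h. As centred log2 ratios of the authors' means, S100b at 7 d was 1.87 above 22 °C and -1.39 against 24 h in KO mice, and -0.27 and -0.88 in Control mice, values with no test. For a test, limma was run on the rebuilt reads, a step chosen after the data were seen. S100b in KO mice was 4.10-fold higher at 7 d than at 22 °C (limma, adjusted p = 2.3e-08) and 2.74-fold lower at 7 d than at 24 h (adjusted p = 2.3e-04). In Control mice it was 1.86-fold lower at 7 d than at 24 h (limma, adjusted p = 0.015), a call that misses the threshold at 0.053 without Control library d of the 7 d group, and against 22 °C the change did not pass (-0.25 ± 0.20 on the log2 scale, adjusted p = 0.45). Genes past the threshold made up 17.6% for Control and 43.2% for KO mice at 7 d against 22 °C, and 4.12% and 5.92% for 7 d against 24 h.

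Most markers of brown adipocytes moved in the direction of S100b between genotypes at 22 °C and in KO mice after cold. Between genotypes at 24 h and 7 d, where S100b was still lower in KO mice, they did not. In KO against Control mice at 22 °C, 14 of 19 such markers fell and 2 rose, 84.2% called against 34.3% of all genes, with a median log2 change of -1.44, and the mean of Ucp1 was 32.8 against 1607 RPKM. From 22 °C to 24 h after cold in KO mice 16 of the 19 rose, 84.2% called against 41.9%. In KO against Control mice 4 were higher and 3 lower at 24 h, 36.8% against 18.5%, and 2 were higher and 2 lower at 7 d, 21.1% against 15.3%. A sum per library could be rebuilt for only 8 of the markers, without Ucp1. At 22 °C this sum ranged from 132 to 150 RPKM in Control and from 84.0 to 112 RPKM in KO libraries. The means of all 19 markers summed to 6796 and 1532 RPKM there, so the 8 stand for a small part of them. Over the 24 libraries the log2 levels of the sum of 8 and of S100b had a correlation of 0.713. With the mean of each group removed it was 0.016. S100b is also a marker of Schwann cells. Of 12 Schwann cell markers 9 had a row at 22 °C, where 1 was higher in KO mice and 0 were lower, 11.1% called against 34.3% of all genes, and their summed RPKM per library ranged from 29.7 to 37.2 in Control and from 25.7 to 39.0 in KO mice at 22 °C. The part of either cell type in the S100b values was not tested. In whole tissue, fewer cells of a type and less RNA per cell cannot be told apart.

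Among genes linked to S100b and to innervation of fat, Clstn3, S100a1 and Nrtn were lower in KO mice at 22 °C. Clstn3, whose locus includes an adipocyte product that aids S100B release in mice, was 2.73-fold lower in KO mice at 22 °C (adjusted p = 1.2e-10) and 5.05-fold higher in KO mice 24 h after cold than at 22 °C (adjusted p = 1.8e-25). S100a1, another calcium-binding S100 protein, was 2.04-fold lower in KO mice at 22 °C (362 against 150 RPKM, adjusted p = 4.8e-09). Nrtn, which encodes the neurotrophic factor neurturin, was 5.80-fold lower in KO mice at 22 °C (adjusted p = 0.0027). Of the 9 genes of this list in the 22 °C table, 3 fell and 1 rose, or 44.4% called against 34.3% of all genes. In the table at 24 h it was 4 lower and 0 higher of 10, 40.0% against 18.5%. It was 30.0% against 21.8% in Control mice after cold, 25.0% against 41.9% in KO mice after cold, and 11.1% against 15.3% between genotypes at 7 d. Over the 6 group means, the genes whose course was most like that of S100b were Lgr6, Cpn2 and Plet1os, at a root mean square distance of 0.126, 0.451 and 0.527 on the log2(mean RPKM + 0.5) scale among 11181 genes. Lgr6, which encodes a receptor for R-spondins, had means of 11.05, 14.3 and 6.92 RPKM in Control mice at 22 °C, 24 h and 7 d, and of 0.00753, 3.87 and 1.06 RPKM in KO mice. The small distance depends on the added 0.5 RPKM. In KO mice at 22 °C Lgr6 was nearly absent, while S100b had a mean of 0.987 RPKM.

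**Figure D2:**
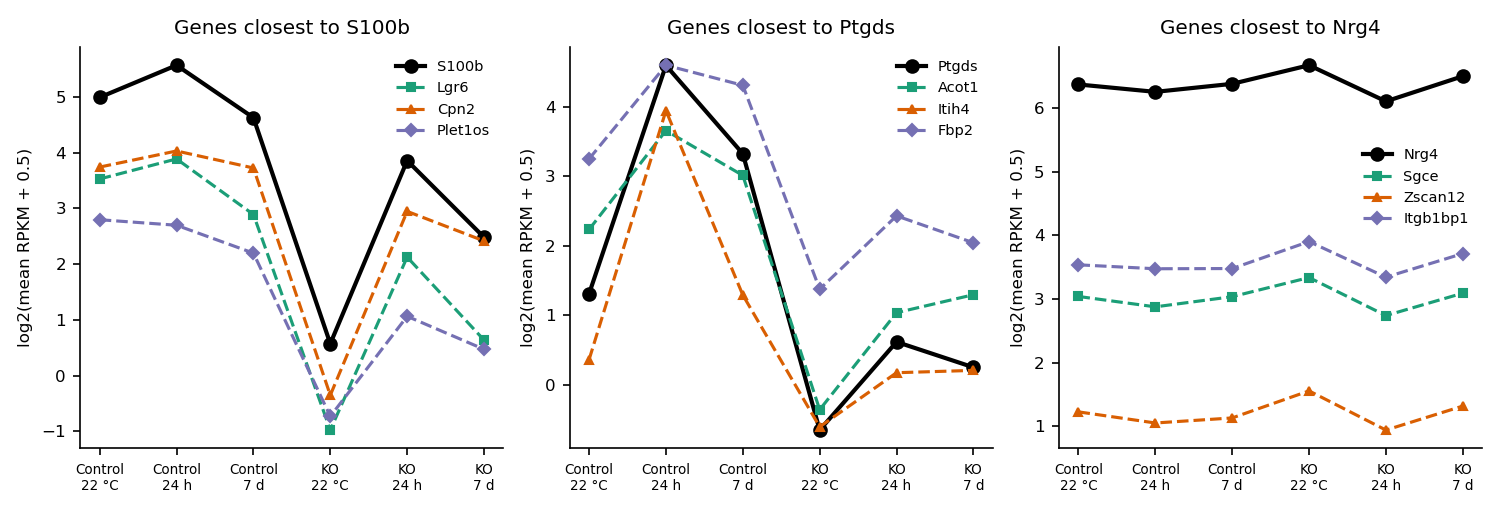
Group means, as log2(mean RPKM + 0.5) on the vertical axis, of S100b, Ptgds and Nrg4 (black) with the 3 genes of most similar course, over the 6 groups. On this scale Lgr6 ran nearly parallel to S100b, at a distance of 0.126, whereas the closest gene to Ptgds lay at 0.689. The added 0.5 weighs most where a mean was near 0, as for Lgr6 in KO mice at 22 °C (0.00753 RPKM).

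Ptgds rose 12.3-fold in Control mice after cold, and in KO mice its mean stayed between 0.135 and 1.03 RPKM at every time. Its promoter window is chr2:25469700-25469999 on the minus strand of GRCm38.p6, from RefSeq, and held none of the motifs searched.
Ptgds: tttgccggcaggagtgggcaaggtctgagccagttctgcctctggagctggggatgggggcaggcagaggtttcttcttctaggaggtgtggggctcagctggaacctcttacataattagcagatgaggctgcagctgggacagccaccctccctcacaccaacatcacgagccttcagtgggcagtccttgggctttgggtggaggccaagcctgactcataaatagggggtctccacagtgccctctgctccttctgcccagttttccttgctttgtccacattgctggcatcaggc
At 22 °C the Control libraries a to d had 1.8, 1.58, 3.36 and 1.16 RPKM of Ptgds, from 5 to 21 reads, and the KO libraries held 1 read each, or 0.126 to 0.147 RPKM. The level was 11.4-fold lower in KO than in Control mice (log2 -3.51 ± 0.75, adjusted p = 2.1e-05). At 24 h after cold the Control libraries had 14.2, 25.7, 40.4 and 14.4 RPKM, all above those at 22 °C (log2 3.62 ± 0.51, adjusted p = 1.6e-10). The KO libraries had 1.04, 0.544, 0.987 and 1.55 RPKM from 10, 4, 6 and 8 reads, 6.64-fold above 22 °C (adjusted p = 0.0022). The lowest Control library was thus far above the highest KO library at this time, and the genotypes differed 21.2-fold (log2 -4.41 ± 0.54, adjusted p = 5.8e-14). In KO mice the rise is from 4 reads in all to 28, a ratio scaled to library totals of 7.39 with an exact 95% interval of 2.58 to 29.0 for counting error only. At 7 d the Control libraries had 7.83, 7.05, 19.97 and 3.21 RPKM and the KO libraries 0.358, 0.882, 0.461 and 1.05 RPKM, again without overlap (13.2-fold lower, adjusted p = 1.9e-09).

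Whether the rise of Ptgds differed between genotypes depended on the scale. From the deposited fold changes the difference was -0.89 ± 0.94 on the log2 scale (adjusted p = 0.59), while limma on log2(CPM + 0.5), which pulls the lowest counts together, gave -2.07 (adjusted p = 0.0097). The centred log2 ratio of the authors' means from 22 °C to 7 d was 2.12 in Control and 0.86 in KO mice. In Control mice Ptgds was still 3.62-fold higher at 7 d than at 22 °C (limma, adjusted p = 0.0021), although the highest Control library at 22 °C, at 3.36 RPKM, passed the lowest at 7 d. Its level at 7 d was 2.54-fold below that at 24 h, at the threshold itself (limma, adjusted p = 0.050), and in KO mice 7 d against 22 °C gave 0.76 ± 0.39 on the log2 scale (limma, adjusted p = 0.12). The genes of most similar course were Acot1, Itih4 and Fbp2, all at distances of 0.689 or more.

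Other prostaglandin genes moved in both directions at 22 °C. In KO against Control mice at 22 °C, 5 of 20 listed genes rose and 5 fell, 50% called against 34.3% of all genes, and at 24 h 5 rose and 0 fell of 21, 23.8% against 18.5%. Pla2g16, the adipose phospholipase that frees arachidonic acid, was 3.91-fold higher in KO mice at 22 °C (adjusted p = 2.9e-40), 1.97-fold higher at 24 h (adjusted p = 3.3e-10) and 2.06-fold higher at 7 d (adjusted p = 1.8e-11). Ptges2, a prostaglandin E synthase, was 2.02-fold lower in KO mice at 22 °C (34.5 against 14.5 RPKM, adjusted p = 5.4e-11) and rose 3.06-fold in KO mice after cold (adjusted p = 5.5e-27). Ptgr2, a prostaglandin reductase, was 1.82-fold lower in KO mice at 22 °C (adjusted p = 2.2e-12).

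Nrg4 was among the most abundant of the factors per length and varied little in Control mice. Its means at 22 °C, 24 h and 7 d were 82.1, 75.7 and 82.7 RPKM in Control mice and 101, 68.2 and 89.9 RPKM in KO mice. Control libraries spanned 68.2 to 92.4 RPKM at 22 °C, 61.3 to 87.7 at 24 h and 71.9 to 86.4 at 7 d, and overlapped throughout (24 h against 22 °C, adjusted p = 0.91). KO libraries spanned 63.1 to 72.3 RPKM at 24 h and 85.7 to 94.8 at 7 d, which did not overlap, though limma did not call the difference (1.28-fold, adjusted p = 0.084). Rebuilding at these read counts kept only solutions with libraries close together, which limits the spread of all these Nrg4 ranges. At 22 °C Nrg4 was 1.46-fold higher in KO than in Control mice (log2 0.54 ± 0.15, adjusted p = 0.0011), opposite in sign to S100b and Ptgds. It fell 1.52-fold in KO mice 24 h after cold (log2 -0.61 ± 0.15, adjusted p = 1.8e-04), and the genotypes did not differ past the threshold at 24 h (log2 -0.02 ± 0.15, adjusted p = 0.98) or 7 d (0.19 ± 0.15, adjusted p = 0.46). The fall after cold was larger in KO than in Control mice by 0.57 ± 0.21 on the log2 scale (adjusted p = 0.041). Nrg4 overlaps Fbxo22 on the opposite strand, and Fbxo22 was at 9.83 RPKM in Control and 6.15 RPKM in KO mice at 22 °C, a change in the other direction. The genes of most similar course were Sgce, Zscan12 and Itgb1bp1, at distances of 0.027, 0.042 and 0.049.

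The receptor of NRG4 was lower in KO mice throughout. Erbb4 was 3.58-fold lower at 22 °C (3.92 against 0.925 RPKM, adjusted p = 1.5e-11), 3.10-fold lower at 24 h (adjusted p = 4.3e-07) and 3.21-fold lower at 7 d (adjusted p = 3.9e-07). In Control mice Erbb4 was also 2.06-fold lower 24 h after cold than at 22 °C (adjusted p = 3.5e-04). Btc, betacellulin, another EGF-like ligand of ErbB receptors, fell 3.38-fold in Control mice after cold (adjusted p = 6.9e-12) and was 3.81-fold lower in KO mice at 22 °C (adjusted p = 4.2e-15). Of 8 genes of the ligand and receptor list in the 22 °C table, 3 fell and 0 rose in KO mice, 37.5% called against 34.3% of all genes, near that share.

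**Figure D3:**
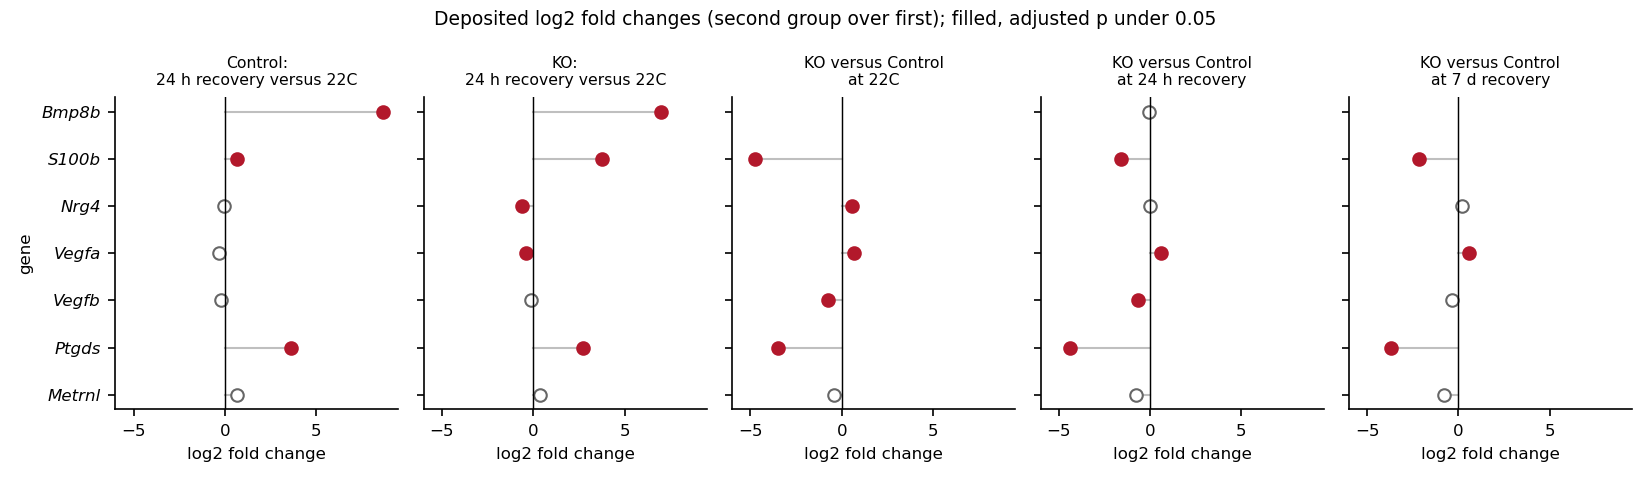
Deposited log2 fold changes (horizontal axis, second group over first) of the 7 factors in the 5 comparisons; filled points had an adjusted p under 0.05. S100b and Ptgds lie on the left, and Vegfa on the right, in each of the comparisons of KO with Control mice. The values plotted for Bmp8b after cold, 8.64 and 7.02, depend on the prior count of the fit.

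Vegfa and Vegfb moved in opposite directions with loss of HDAC3. Vegfa, the main angiogenic ligand of the family, had means of 90.1, 68.0 and 64.4 RPKM in Control mice and 123, 94.9 and 93.2 RPKM in KO mice at 22 °C, 24 h and 7 d. It was 1.62-fold higher in KO mice at 22 °C (log2 0.69 ± 0.16, adjusted p = 9.5e-05), 1.54-fold higher at 24 h (adjusted p = 0.0015) and 1.52-fold higher at 7 d (adjusted p = 0.0025). The change in the effect from 22 °C to 7 d did not pass the test (-0.09 ± 0.23 on the log2 scale, adjusted p = 0.85). After cold it fell 1.33-fold in KO mice (adjusted p = 0.028), and in Control mice the ratio was 1.26-fold lower without passing the test (adjusted p = 0.13). The difference in that change between genotypes did not pass (-0.08 ± 0.22, adjusted p = 0.88).

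Vegfb, a ligand of VEGF receptor 1, was lower in KO mice. At 22 °C the Control libraries a to d had 22.1, 28.3, 18.9 and 25.7 RPKM and the KO libraries 15.5, 10.6, 11.6 and 10.4 RPKM, without overlap (1.66-fold lower, log2 -0.73 ± 0.21, adjusted p = 0.003). At 24 h after cold the Control libraries had 13.3, 21.0, 18.1 and 23.6 RPKM and the KO libraries 10.4, 12.6, 11.8 and 9.87 RPKM. These ranges came close but did not overlap (1.56-fold lower, adjusted p = 0.021). At 7 d the ranges overlapped, at 12.7 to 24.1 RPKM in Control and 11.6 to 17.9 RPKM in KO mice (adjusted p = 0.35). The difference between the effects at 7 d and 22 °C did not pass the test (0.40 ± 0.30 on the log2 scale, adjusted p = 0.44). From 22 °C to 24 h after cold Vegfb passed the test in neither genotype (adjusted p = 0.48 in Control and 0.65 in KO mice).

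Among other angiogenesis genes, the VEGF co-receptor Nrp2 was lower in KO mice at each time, 3.78-fold at 22 °C (adjusted p = 1.6e-31), 2.39-fold at 24 h (adjusted p = 2.2e-13) and 2.05-fold at 7 d (adjusted p = 4.3e-09). Notch1, the Notch receptor of endothelial and other cells, was 2.61-fold higher in KO mice at 22 °C (adjusted p = 3.9e-14) and fell 4.50-fold in KO mice after cold (adjusted p = 4.2e-32). Of 21 genes of this list, 2 rose and 3 fell in KO mice at 22 °C, 23.8% called against 34.3% of all genes. At 24 h 3 rose and 6 fell, 42.9% against 18.5%, and at 7 d 2 rose and 4 fell, 28.6% against 15.3%. Of 12 endothelial markers 1 was higher and 0 were lower in KO mice at 22 °C, 8.33% called against 34.3% of all genes, and their sum per library ranged from 219 to 297 RPKM in Control and from 231 to 261 RPKM in KO mice.

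Metrnl passed the authors' edgeR test in none of the 5 comparisons, with an unadjusted p under 0.05 in 3 of them (Control after cold, and KO against Control at 24 h and 7 d), and limma on all libraries called it in none. With library d of the Control group at 24 h left out, limma called Metrnl higher in Control mice after cold (adjusted p = 0.028) and lower in KO than in Control mice at 24 h (adjusted p = 0.0285). At 7 d it was called lower in KO mice without library a or d of that same group, which enters this comparison only through the shared spread (adjusted p = 0.018 at the lowest). Its means were 2.22, 3.5 and 2.76 RPKM in Control mice and 1.39, 1.83 and 1.51 RPKM in KO mice at 22 °C, 24 h and 7 d. At 22 °C the Control libraries had 2.74, 2.47, 1.93 and 1.74 RPKM and the KO libraries 0.948, 1.83, 1.46 and 1.34 RPKM, which overlap (adjusted p = 0.36). At 7 d the Control libraries had 2.97, 3.07, 2.45 and 2.53 RPKM and the KO libraries 1.83, 1.56, 1.05 and 1.59 RPKM, with no overlap, a 1.75-fold difference (log2 -0.80 ± 0.34, adjusted p = 0.097). The Control libraries 24 h after cold were spread the most, at 7.27, 3.13, 2.29 and 1.29 RPKM in libraries a to d. Macrophage markers were spread in the same libraries: their summed RPKM was 303, 225, 90.3 and 66.2 in libraries a to d, against 65.9 to 95.5 in the Control libraries at 22 °C. Of 14 macrophage markers, 11 rose in Control mice after cold (adjusted p under 0.05) and 0 fell, 78.6% called against 21.8% of all genes. In KO mice after cold 0 rose and 1 fell, 7.14% against 41.9%. Over the 24 libraries, with the mean of each group removed, the log2 levels of Metrnl and of the macrophage marker sum had a correlation of 0.885, given as a description, since libraries also share depth and dissection. The same value was 0.779 for fibroblast markers and 0.0571 for muscle markers. The part of macrophages in the level of Metrnl was not tested.

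**Figure D4:**
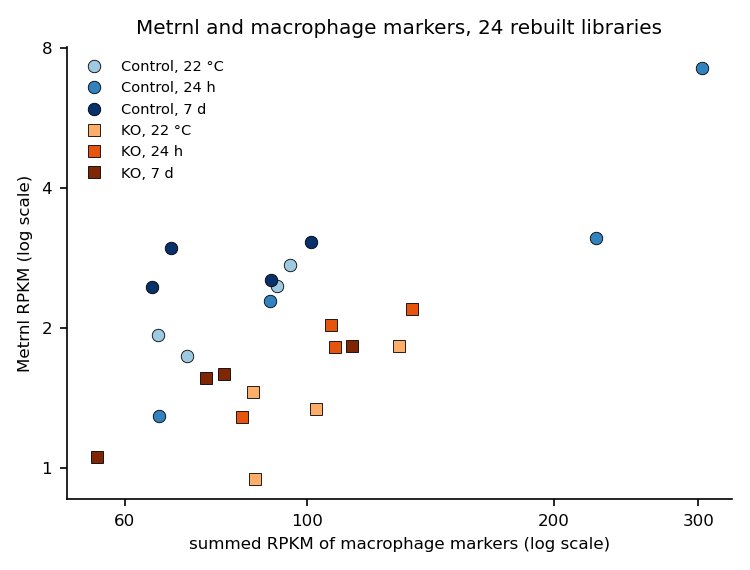
Metrnl RPKM (vertical, log scale) against the summed RPKM of 12 macrophage markers (horizontal, log scale) in the 24 rebuilt libraries, circles for Control and squares for KO mice. The Control library a 24 h after cold stands at the top right, at 303 and 7.27 RPKM, and Control library d of the same group at 66.2 and 1.29 RPKM.

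Kit, whose product binds METRNL in mouse heart, was 3.43-fold lower in KO mice at 24 h (adjusted p = 1.7e-07) and 2.01-fold lower at 7 d (adjusted p = 0.0046). Metrn, the relative of Metrnl, was higher in KO mice at each time, 2.13-fold at 22 °C (adjusted p = 0.012), 1.92-fold at 24 h (adjusted p = 0.013) and 2.20-fold at 7 d (adjusted p = 0.015).

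For Il6, which had no row, the genes of its receptor and signalling chain were measured. Il6ra, the ligand-binding receptor, was 4.77-fold higher in KO mice at 22 °C (3.2 against 12.8 RPKM, adjusted p = 5.5e-18), fell 3.75-fold in KO mice after cold (adjusted p = 1.5e-13) and was again 2.59-fold higher than in Control mice at 7 d (adjusted p = 1.2e-06). Socs3, a feedback inhibitor of the pathway, was 3.67-fold lower in KO mice at 24 h (adjusted p = 0.017). In KO mice after cold 8 of 16 listed genes of the chain fell and 3 rose, 68.8% called against 41.9% of all genes. In the other comparisons the list was near or below all genes, at 17.6% against 21.8% in Control mice after cold, and at 35.3% against 34.3%, 18.8% against 18.5% and 18.8% against 15.3% between genotypes at 22 °C, 24 h and 7 d.

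In a list of 41 other secreted factors of fat, none of them a member, 34 had a row in the Control table and 11 rose while 7 fell after cold, 52.9% called against 21.8% of all genes. In KO mice 5 rose and 11 fell of 34, 47.1% called against 41.9%, near the share of all genes. Kng2, a kininogen, had a course of the kind seen for S100b, with 38.0 RPKM in Control and 0.0973 RPKM in KO mice at 22 °C (adjusted p = 9.5e-116). It rose 204-fold in KO mice after cold, to 21.3 RPKM (adjusted p = 6.7e-99), a fold that starts from a mean near 0. At 7 d Kng2 was 8.41-fold lower in KO than in Control mice (adjusted p = 8.4e-35). Pm20d1, a secreted enzyme that makes N-acyl amino acids, was 15.5-fold lower in KO mice at 22 °C, 6.02-fold lower at 24 h and 9.54-fold lower at 7 d (adjusted p = 9.0e-33, 2.8e-17 and 1.9e-23). Lep, the adipocyte hormone leptin, fell after cold 6.56-fold in Control (adjusted p = 1.2e-05) and 6.82-fold in KO mice (adjusted p = 1.4e-06). Angptl4, an inhibitor of lipoprotein lipase, fell 3.71-fold in Control mice (adjusted p = 1.2e-10) and did not pass the test in KO mice (adjusted p = 0.48). In the BMP pathway of BMP8B, 4 of 20 listed genes fell and 0 rose in Control mice after cold, 20% called against 21.8% of all genes, so the list did not stand out there. In KO mice 11 fell and 1 rose of 20, 60% against 41.9%. Id3, a target of BMP signalling, fell 2.44-fold in Control (adjusted p = 4.4e-07) and 2.30-fold in KO mice (adjusted p = 6.4e-07). Smad6, an inhibitor of the pathway, fell 2.06-fold in Control (adjusted p = 8.9e-05) and 3.26-fold in KO mice (adjusted p = 1.3e-13).

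**Figure D5:**
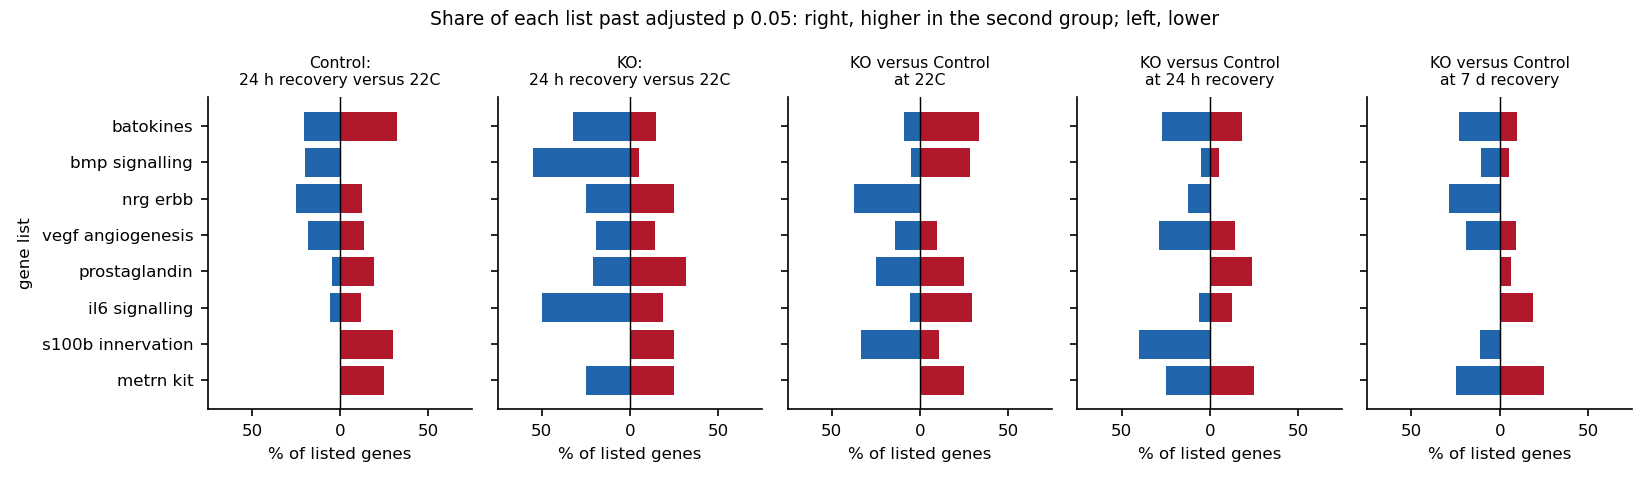
Share of the genes of each list with a row (horizontal axis, in percent) that passed an adjusted p of 0.05 in the 5 comparisons, drawn to the right where higher in the second group and to the left where lower. The list of other secreted factors (batokines) has 11 of 34 genes higher and 7 lower in Control mice after cold, and the BMP pathway 11 of 20 lower in KO mice.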

How the data were processed

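Whole interscapular brown fat was profiled in 24 libraries, 4 in each of 6 groups, grouped by their titles. Per the labels' protocols, TRIzol and column-purified RNA was depleted of ribosomal RNA and made into libraries with TruSeq RNA v2, which does not mark strand. The submitters' processing notes name STAR, featureCounts, edgeR and build mm9, with no versions. The authors' deposited tables give, for 5 comparisons, mean RPKM per group, log2 fold changes (second group over first), p-values and adjusted p-values (the authors' FDR column). Their status column matched an FDR under 0.01 with a fold over 1.5. The labels' protocols call the replicates biological.

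Reads per library were rebuilt by finding whole counts and whole totals that give each deposited mean RPKM to its 15th digit (tolerance 2 units below 500 mean reads, 1 unit up to 2000). Below 500 mean reads the only whole solution was taken. From 500 up it was the only solution with libraries close together, so this rule limited their spread. That holds for all rebuilt values of Nrg4 and for S100b in Control mice at 24 h. Under 100 mean reads, 99.95% of means had 1 solution, and 0% of means shifted as a control had any. At the highest counts rebuilt, up to 2000, it was 91.8% and 25.1%, so the values of Nrg4 are less certain. Rebuilt RPKM use the authors' gene lengths. Intervals and floors (3 reads) cover counting error only, with exact 95% limits.

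Main tests are the authors' at an adjusted p of 0.05. Differences between tables were tested by z from errors rebuilt from the deposited log2 fold change and p. They were adjusted by Benjamini-Hochberg over the genes in both tables with p under 0.9 in each. The shares of genes past the threshold in these differences are over the same genes, which leave out the least changed. Levels at 7 d were compared as log2(mean RPKM + 0.5), centred on the median of all genes, and, added after the data were seen, with limma 3.58.1 in R 4.3.3 on log2(CPM + 0.5) of rebuilt reads of all 6 groups, where Nrg4 in KO at 22 °C and Vegfa were left out. On simulated data for KO at 24 h against 22 °C (11429 genes), limma was tested before use. Genes named beyond the members come from the 3 past the threshold with the smallest p in each list and comparison, and from the 3 closest in course over the 6 group means to each member. Promoters and chromosomes came from RefSeq (GRCm38.p6) by symbol, and 8 of 8 members matched; gene overlaps came from GENCODE vM21. Members and lists were chosen with earlier results of these data known. Alternatives were a threshold of 0.01, adjustment over listed genes, an average log2 CPM of at least 1, pseudocounts of 0.1 and 1, a second pairing of the tables, no centring, limma with a prior of 2, with at least 10 mean reads or scaled to totals, and leaving out each library.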

Additional observations from a re-analysis of the deposited data

Results flagged for a closer look

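In 32 sets of 4 libraries, 3 held a library set apart from the others of its group by more than a 95% limit on the gap over the range; chance gives about 1 in 20. Bmp8b in KO mice at 22 °C was at 0.0346 RPKM in one library, which is 1 read, and at 0 in the others. S100b in KO mice 7 d after cold was at 7.14 RPKM in one library, where the next was at 4.55. Nrg4 in Control mice 7 d after cold was at 71.9 RPKM in one library, where the next was at 86.2. The spread of the Nrg4 libraries was limited by the rule used to rebuild them.

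The change 24 h after cold differed between genotypes for S100b, by 3.13 on the log2 scale (KO minus Control), and for Nrg4, by -0.57. The effect of the KO on S100b also differed between 7 d and 22 °C, by 2.56 on the log2 scale. Each of these was a test of the difference itself.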

How the results depend on the processing

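The authors' call of each member was kept when adjusted over the listed genes. Direction was kept with both pseudocounts except where given here. The limit of an average log2 CPM of at least 1 removed no member and reused the authors' values, so it could not change their calls. At an adjusted p of 0.01 the difference in recovery change was called for 1 member in place of 2 (Nrg4 was lost), and Vegfa in KO after cold and Vegfb at 24 h between genotypes also lost their call. For KO after cold, the count of 5 called members was 3 with limma (2 with the prior of 2, 3 with at least 10 mean reads, 3 scaled to totals), and for KO against Control at 22 °C it was 3, 2, 3 and 3 in place of 5; limma had no Vegfa and no Nrg4 there, and Ptgds lost both calls with the prior of 2. Leaving out each library of the groups compared in turn under limma gave 2 to 4 called members for Control after cold, 2 to 3 for KO after cold, 3 for KO against Control at 22 °C, 2 to 3 at 24 h, 2 at 7 d, 2 for the difference in recovery change, 1 and 0 for the other differences, and 3 to 5 values past 2-fold at 7 d (any library left out). The 2 members called by limma in the difference in recovery change were S100b and Ptgds. Nrg4 could not be fitted there, so its call in that difference was not checked by leaving out libraries. Libraries of the other groups enter through the shared spread. Without Control library a or d at 24 h, 3 members were called between genotypes at 7 d, Metrnl being the added one. S100b in Control after cold, at an adjusted p of 0.021 with limma, reached 0.081 at most, with Control libraries a or b at 22 °C or a or c at 24 h left out. Ptgds in KO after cold reached 0.067 without KO library d at 24 h, Vegfb between genotypes at 24 h ranged from 0.0036 to 0.15 and lost its call without any 1 of 10 of the 24 libraries, and Metrnl in Control after cold was at 0.028 without library d at 24 h and at 0.87 at most, between genotypes at 24 h from 0.029 (without the same library) to 0.83, and at 7 d from 0.018 to 0.19.

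Values near 0 changed sign. Between genotypes at 24 h, Nrg4 was 0.034 with a pseudocount of 0.1 and 0.029, 0.028 and 0.029 with limma (prior 0.5, prior 2, at least 10 mean reads), and Bmp8b was 0.014 with a pseudocount of 1. With each library left out, ranges that crossed 0 were -0.14 to 0.11 for Nrg4 in Control after cold, -0.19 to 0.019 for Vegfb in KO after cold, -0.30 to 0.24 for Bmp8b and -0.12 to 0.13 for Nrg4 between genotypes at 24 h, -0.38 to 0.17 for Bmp8b, -0.070 to 0.27 for Vegfb and -0.43 to 0.27 for Metrnl in the difference in recovery change, and -0.63 to 0.070 for Metrnl in the KO effect at 7 d minus 24 h. The cause was not tested. No paired analysis was possible because the tables hold group means and the rebuilt libraries carry no replicate numbers. Counts under about 10 reads per library (Ptgds in KO, Bmp8b at 22 °C) limit those folds.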
